A study of Rattus norvegicus with 16 samples.

Results

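The Dusp and Sprouty genes described here are 10 genes whose protein products restrain mitogen-activated protein (MAP) kinase signalling. They were taken by name and were Dusp1, Dusp4, Dusp5, Dusp6, Dusp8, Dusp10, Dusp14, Spry1, Spry2 and Spry4, which makes 10 of the 14497 genes covered by the array annotation used here. Each had 1 probe set among the 15209 probe sets paired with a single gene. RNA of the gustatory cortex, the insular area that receives taste input, was measured on 16 Affymetrix RaGene 1.1 ST v1 arrays, 1 rat per array. The 4 groups of 4 arrays were saccharin 3 h, saccharin 1 h, water 3 h and water 1 h. All were male Wistar Hola rats, given as 2 months old in the sample labels whereas the study's methods give a range of older ages, and all had been kept on restricted water and had learned to take their daily water from pipettes within a short session. On the test day they drank either 0.1% saccharin, a taste they had not met before, or water, the familiar fluid, and were killed 3 h or 1 h after drinking. No group that had not drunk was on the arrays, so every value at 3 h is set against 1 h and not against a resting level.

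Dual-specificity phosphatases of the MAP kinase phosphatase class remove phosphate from both the threonine and the tyrosine that switch a MAP kinase on. Sprouty proteins act further upstream, where they dampen the path leading from growth factor receptors through Ras to the kinase ERK. Many of these genes are themselves switched on by ERK, so that they form a feedback loop, and in cortex several of them are transcribed within minutes to hours of neuronal activity, in the same wave as immediate early genes such as Fos. Dusp1, Dusp4 and Dusp5 encode nuclear phosphatases, of which the Dusp5 product acts mainly on ERK and the Dusp1 product on p38, JNK and ERK. Dusp6 encodes the cytoplasmic phosphatase of ERK, Dusp8 and Dusp10 encode phosphatases that act mainly on JNK and p38, and Dusp14 encodes a small atypical phosphatase without the kinase-binding domain of the others.

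Values are deposited log2 expression values, so a difference of 1 is a doubling, and they were compared within a gene only. Array medians lay between 5.08 and 5.17 and the correlation of any 2 arrays between 0.9945 and 0.9972, with no identical pair. Excitatory cortical neuron markers (4 of a list of 8 had a probe set named here) averaged between 9.44 and 9.59 on the 16 arrays. All leptomeningeal markers and 6 of 7 striatal markers moved in 1 direction with time, and endothelial markers did so only in part. All 15 leptomeningeal and fibroblast markers were lower at 3 h, with none passing the adjusted test and 11 passing without adjustment, and their mean ranged from 6.15 to 6.81 in saccharin 3 h, from 6.70 to 6.97 in saccharin 1 h, from 6.37 to 6.78 in water 3 h and from 6.65 to 6.93 in water 1 h. Of 7 striatal neuron markers, 6 were higher at 3 h, with only Pde10a past the adjusted test and 4 past the unadjusted one, and their mean ranged from 6.26 to 6.37 in saccharin 3 h, from 6.07 to 6.26 in saccharin 1 h, from 6.31 to 6.35 in water 3 h and from 6.06 to 6.22 in water 1 h. Of 6 endothelial markers, none passed the adjusted test and 3 were higher at 3 h without adjustment. The averaged difference was negative for 2 of the 6, Flt1 (−0.019) and Kdr (−0.055). Their mean overlapped between times, from 6.69 to 6.83 in saccharin 3 h and from 6.63 to 6.82 in saccharin 1 h. It ranged from 6.68 to 6.83 in water 3 h and from 6.55 to 6.78 in water 1 h. The leptomeningeal and fibroblast mean overlapped between times as well, in both tastes. Over all probe sets tested, 6.25% were lower and 5.77% higher at 3 h without adjustment, averaged over tastes. The part of the endothelial markers in the results was not tested. The arrays numbered C365 to C372 were all 3 h and C373 to C380 all 1 h, so effects of array number and of time cannot be told apart. In bulk tissue, fewer cells of a type and less RNA per cell cannot be told apart either.

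The genes with the clearest change in time were Dusp1, Dusp6 and Dusp5, the inducible phosphatases of ERK and its relatives, and Spry2. Averaged over both tastes, these 4 fell at 3 h relative to 1 h with a limma adjusted p under 0.05, and no member rose. Over all probe sets tested, 0.723% fell and 0.283% rose by the same test. Dusp1 had by far the largest difference among the members, with a level at 3 h that was 35.0% of that at 1 h, and Dusp6 stood at 63.2%, Dusp5 at 79.4% and Spry2 at 86.1%. The other members did not pass. The plot of each member by array shows all values.

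**Figure D1:**
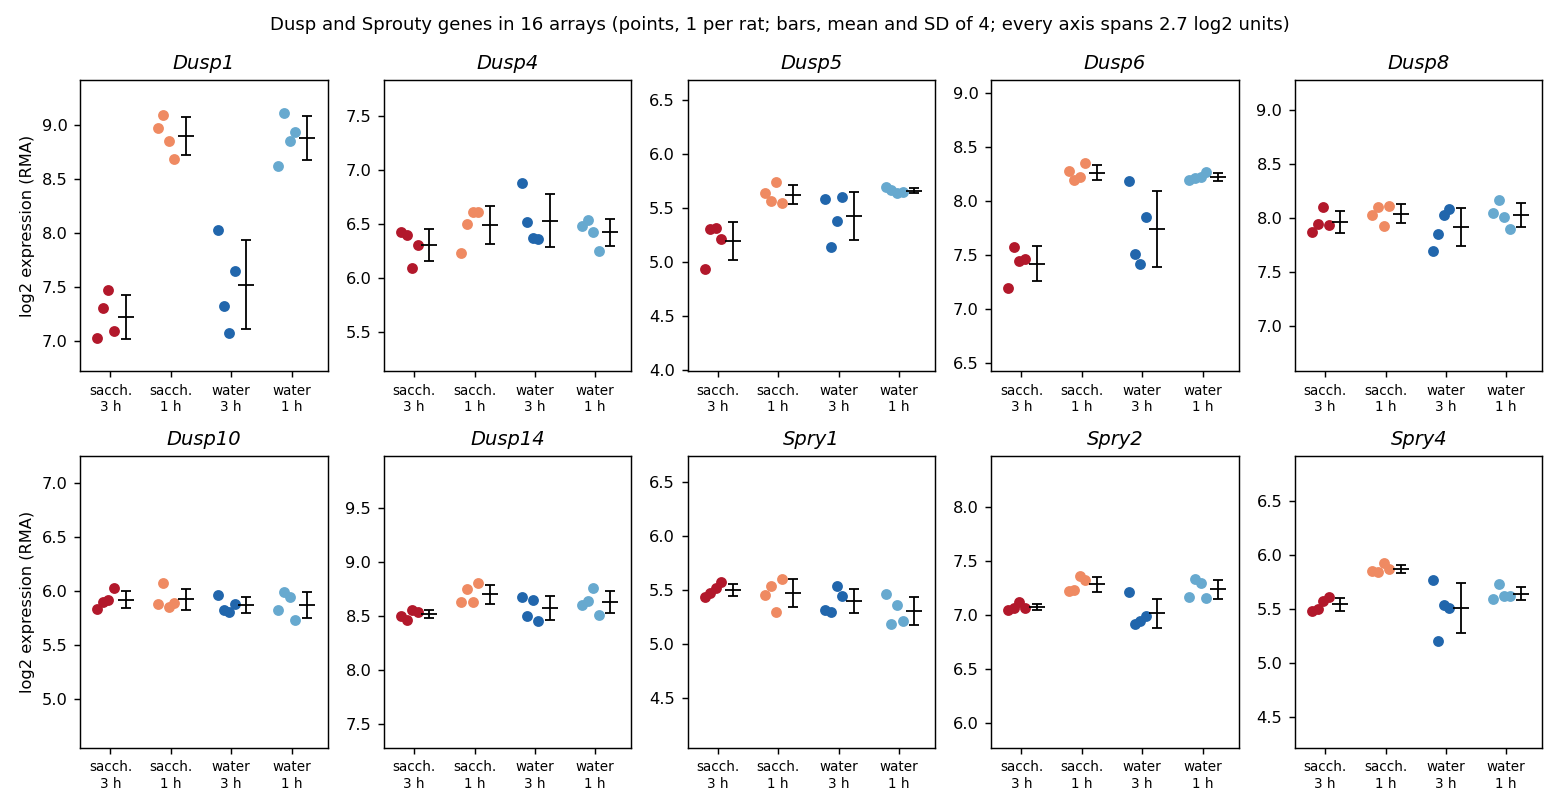
Log2 expression (vertical axis) of each Dusp and Sprouty gene on each of 16 arrays, in saccharin 3 h, saccharin 1 h, water 3 h and water 1 h (points, 1 rat each; bars, mean and SD of 4; all panels span the same number of log2 units). Dusp1 lies below 8.1 in every 3 h array and above 8.6 in every 1 h array, whereas Dusp10 and Spry1 overlap throughout.

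The promoter windows of the 4 genes that passed are given here because they show how differently these genes begin. Each window runs from 250 bases before to 50 bases after a RefSeq transcription start in the rat assembly GRCr8, written 5′ to 3′ on the strand of the gene, and Dusp1 lies at chr10:17184603-17184902 (plus strand), Dusp5 at chr1:262543524-262543823 (plus), Dusp6 at chr7:35979354-35979653 (plus) and the first of 2 Spry2 windows at chr15:89111877-89112176 (minus). Capitals mark matches, on either strand, to the cAMP response element CRE (TGACGTCA), its core (TGACG), the AP-1 site (TGANTCA), the CArG box bound by serum response factor, and the EGR site (GCGNGGGCG). A full CRE contains a core on each strand.
Dusp1: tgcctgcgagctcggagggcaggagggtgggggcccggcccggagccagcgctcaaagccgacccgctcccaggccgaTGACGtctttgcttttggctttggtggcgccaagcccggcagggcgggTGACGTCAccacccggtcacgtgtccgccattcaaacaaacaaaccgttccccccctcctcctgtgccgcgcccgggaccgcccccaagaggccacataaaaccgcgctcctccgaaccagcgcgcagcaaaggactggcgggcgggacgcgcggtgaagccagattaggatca
Dusp5: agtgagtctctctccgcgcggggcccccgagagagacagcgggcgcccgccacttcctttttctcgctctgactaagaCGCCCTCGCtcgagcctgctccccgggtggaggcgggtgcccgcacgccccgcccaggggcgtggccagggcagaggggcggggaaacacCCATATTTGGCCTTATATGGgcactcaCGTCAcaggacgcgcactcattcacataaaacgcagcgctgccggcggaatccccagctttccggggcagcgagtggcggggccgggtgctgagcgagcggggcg
Dusp6: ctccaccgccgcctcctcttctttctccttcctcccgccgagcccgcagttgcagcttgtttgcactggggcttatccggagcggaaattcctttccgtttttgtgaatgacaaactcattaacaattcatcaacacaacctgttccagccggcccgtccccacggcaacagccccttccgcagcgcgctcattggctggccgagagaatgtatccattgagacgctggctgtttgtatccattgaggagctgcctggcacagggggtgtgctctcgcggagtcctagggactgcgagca
Spry2: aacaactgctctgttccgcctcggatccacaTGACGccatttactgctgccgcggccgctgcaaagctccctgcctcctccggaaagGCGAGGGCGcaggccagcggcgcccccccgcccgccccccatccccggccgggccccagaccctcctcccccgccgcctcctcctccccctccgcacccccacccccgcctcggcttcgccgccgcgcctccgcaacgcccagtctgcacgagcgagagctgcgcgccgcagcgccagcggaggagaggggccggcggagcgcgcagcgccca

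The Dusp1 window held a full CRE that begins 124 bases before the start and a separate CRE core at 172 bases before it. Of 33469 windows of this length, 1.83% held a full CRE and 21.2% a CRE core. The Dusp5 window held 2 adjoining CArG boxes, at 82 and 72 bases before the start, together with a CRE core at 55 and an EGR site at 172 bases before it, and 1.64% of all windows held a CArG box and 4.98% an EGR site. Spry2 had a CRE core and an EGR site in the window shown, at 219 and 163 bases before the start, and an EGR site in its second window. In the Dusp6 window none of these motifs was found, which says only that these letters are not within these 300 bases. Of the other members, an EGR site was found for Dusp8 and an AP-1 site (in 7.33% of all windows) and a CRE core for 1 of 3 windows of Dusp14, whereas Dusp10, Spry1 and Spry4 had none of the 5 motifs. Motifs of Dusp4 were not analysed here. A match of letters is a description and not a binding site.

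After saccharin, Dusp1 measured 7.03, 7.31, 7.48 and 7.10 at 3 h, against 8.97, 9.09, 8.85 and 8.69 at 1 h. After water it measured 8.03, 7.33, 7.08 and 7.65 at 3 h, against 8.63, 9.12, 8.86 and 8.93 at 1 h. All 3 h arrays were below all 1 h arrays in both tastes. The log2 difference was −1.67 ± 0.16 (SE) after saccharin (limma adjusted p = 2.61e-05) and −1.36 ± 0.16 after water (adjusted p = 8.09e-04), and Dusp1 ranked 3rd after saccharin and 2nd after water by p among all probe sets tested. The level at 3 h was thus 31.4% of that at 1 h after saccharin and 38.9% after water.

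Dusp6, the cytoplasmic phosphatase of ERK, had the second largest change of the members. After saccharin it measured 7.19, 7.58, 7.45 and 7.46 at 3 h, against 8.28, 8.19, 8.23 and 8.36 at 1 h, and the difference was −0.84 ± 0.12 (SE, adjusted p = 0.00164). After water it measured 8.19, 7.52, 7.42 and 7.85 at 3 h, against 8.19, 8.21, 8.22 and 8.27 at 1 h. Here the groups did not overlap only by a narrow gap, since the highest 3 h array, C365, lay level with the lowest 1 h array at 2 decimals. The water difference was −0.48 ± 0.12 and did not pass (adjusted p = 0.214). Without C365 it was −0.63 ± 0.093 and passed (adjusted p = 0.00415), the largest fall of the 28 alternatives. Leaving out the highest 3 h array can only deepen the fall. Dusp6 stayed uncalled after water in 26 of 28 alternatives, where the difference was as small as −0.37 and the adjusted p was up to 0.688.

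Dusp5 had a narrower range. After saccharin it measured 4.93, 5.31, 5.31 and 5.21 at 3 h, against 5.64, 5.57, 5.74 and 5.54 at 1 h, with a difference of −0.43 ± 0.093 (SE) that missed the threshold (adjusted p = 0.0575). After water it measured 5.58, 5.13, 5.38 and 5.60 at 3 h, against 5.69, 5.66, 5.64 and 5.64 at 1 h, with a difference of −0.23 ± 0.093 (adjusted p = 0.578). The groups did not overlap in either taste, and the change averaged over tastes was −0.33 ± 0.066 (adjusted p = 0.0163). The saccharin result lay close to the threshold without being a call. Dusp5 passed in that comparison when C365, C367 or C371 was left out (adjusted p = 0.0466, 0.011 and 0.0466). These are water 3 h arrays that enter only through the shared estimate of spread. With all 16 arrays Dusp5 also passed under both filters on dim probe sets, median centring, array weights and a trended robust prior (adjusted p between 0.0313 and 0.0498). It stayed uncalled after saccharin in 19 of 28 alternatives, with an adjusted p of up to 0.479.

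Dusp4, the remaining inducible nuclear phosphatase, overlapped between times in both tastes. Its arrays lay between 6.09 and 6.42 in saccharin 3 h, 6.23 and 6.61 in saccharin 1 h, 6.36 and 6.88 in water 3 h, and 6.25 and 6.54 in water 1 h. The difference was −0.18 ± 0.11 (SE) after saccharin (adjusted p = 0.738) and 0.11 ± 0.11 after water (adjusted p = 0.895), where it was −0.0080 without C365. The 95% interval of the averaged difference ran from −0.20 to 0.13, so that a change of the size seen for Dusp6 lies outside it.

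The phosphatases of JNK and p38 did not pass in any comparison of time. Averaged over tastes, Dusp8 differed by −0.097 ± 0.057 (SE, adjusted p = 0.54) and Dusp10 by −0.0033 ± 0.046 (adjusted p = 0.989), with a 95% interval for Dusp10 of −0.10 to 0.094. All 16 arrays lay between 7.70 and 8.17 for Dusp8 and between 5.73 and 6.07 for Dusp10. Dusp14 measured 8.51, 8.47, 8.55 and 8.54 in saccharin 3 h, against 8.63, 8.75, 8.63 and 8.81 in saccharin 1 h, without overlap, but its difference of −0.19 ± 0.063 did not pass (adjusted p = 0.365). After water its groups overlapped, with a difference of −0.054 ± 0.063 (adjusted p = 0.907).

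Among the Sprouty genes, Spry2 had the most even change between tastes. It measured 7.05, 7.07, 7.12 and 7.06 in saccharin 3 h, against 7.22, 7.23, 7.36 and 7.33 in saccharin 1 h, which did not overlap. It measured 7.21, 6.92, 6.94 and 6.99 in water 3 h, against 7.17, 7.33, 7.30 and 7.15 in water 1 h, where only C365 reached the 1 h range. The difference was −0.21 ± 0.063 (SE) after saccharin (adjusted p = 0.283) and −0.22 ± 0.063 after water (adjusted p = 0.327), and neither passed. The averaged difference of −0.22 ± 0.044 passed (adjusted p = 0.0217). That call was lost when any 1 of C369, C374, C376 or C380 was left out (adjusted p between 0.0508 and 0.0575) and when p-values were adjusted over all probe sets of the table (adjusted p = 0.0505).

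Spry4 measured 5.49, 5.51, 5.58 and 5.62 in saccharin 3 h, against 5.86, 5.85, 5.93 and 5.88 in saccharin 1 h. It measured 5.77, 5.21, 5.54 and 5.51 in water 3 h, against 5.59, 5.73, 5.63 and 5.63 in water 1 h. The saccharin groups stood well apart and the water groups overlapped through C365. The difference was −0.33 ± 0.081 (SE) after saccharin (adjusted p = 0.112), −0.14 ± 0.081 after water (adjusted p = 0.77) and −0.23 ± 0.057 when averaged (adjusted p = 0.0611), none of which passed. Without C365 the saccharin and averaged differences passed (adjusted p = 0.0273 and 0.00679), and without C367 the saccharin difference did (adjusted p = 0.00952). The saccharin difference also passed in a fit of its own 8 arrays (adjusted p = 0.0139), and the averaged one under both dim filters and the trended robust prior (adjusted p between 0.038 and 0.0461). In most alternatives Spry4 stayed uncalled, in 24 of 28 after saccharin (adjusted p up to 0.542) and 23 of 27 when averaged (up to 0.55). Spry1, the third Sprouty gene among the members, differed by 0.061 ± 0.053 when averaged (adjusted p = 0.715), and its 16 arrays lay between 5.18 and 5.60.

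Counted by taste, 2 of 10 members fell after saccharin (Dusp1 and Dusp6) and 1 of 10 after water (Dusp1), and none rose in either. Of all probe sets tested, 0.276% fell and 0.0723% rose after saccharin, and 0.0986% fell and 0.0263% rose after water. At an unadjusted p under 0.05, 6 members were lower at 3 h after saccharin (4.56% of all tested), 4 after water (3.67%) and 6 when averaged (6.25%). The arrays of the 2 times did not overlap, with 3 h lower, for 6 members after saccharin (2.69% of all tested) and 3 after water (1.93%), and each of these had the exact permutation p of 0.0286, the smallest that 4 against 4 arrays allow. The median difference of the 10 members was −0.20 after saccharin and −0.13 after water, against −0.0023 and 0.0023 over all probe sets tested, and 9 and 8 of 10 members were negative, against 51.2% and 48.7% of all. The plot of the time differences shows the saccharin value below the water value for 8 of the 10 members, against 53.2% of all probe sets tested.

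**Figure D2:**
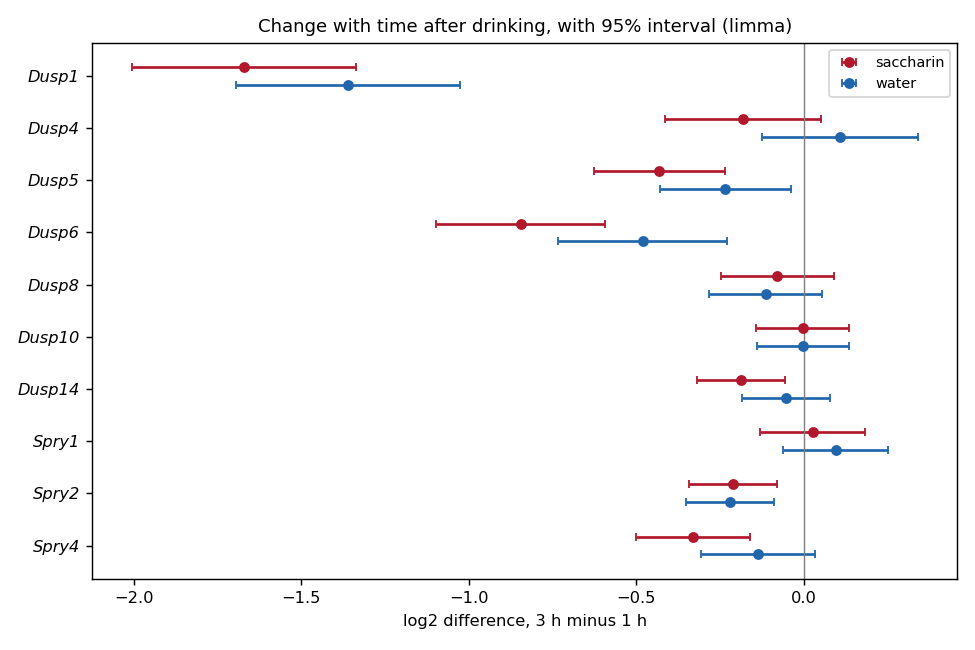
Log2 difference between 3 h and 1 h (horizontal axis, 3 h minus 1 h) for each member, after saccharin (upper, red) and after water (lower, blue), with 95% limma intervals. Dusp1 and Dusp6 lie farthest to the left, and intervals of both tastes overlap for every member.

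The marker means that moved with time were set beside these changes. With the leptomeningeal and fibroblast mean as a covariate, Dusp1 and Dusp6 kept their calls after saccharin (adjusted p = 0.00157 and 0.0266) and in the average, and the averaged calls of Dusp5 and Spry2 were lost. The differences themselves stayed near their size while their SE grew, at −0.33 ± 0.088 for Dusp5 (adjusted p = 0.192) and −0.24 ± 0.059 for Spry2 (adjusted p = 0.14). Every 3 h array had a higher striatal mean than every 1 h array, so as a covariate it leaves little to separate the times by. With it the averaged call of Dusp1 was kept (−1.59 ± 0.22, adjusted p = 0.00841). Those of Dusp6 (−0.63 ± 0.16, adjusted p = 0.288), Dusp5 (−0.36 ± 0.13, adjusted p = 0.471) and Spry2 (−0.23 ± 0.086, adjusted p = 0.511) were lost at differences of about the same size and with larger SE. By taste it kept Dusp1 after saccharin (adjusted p = 0.0112) and lost Dusp1 after water (−1.43, adjusted p = 0.097) and Dusp6 after saccharin (−0.81, adjusted p = 0.221).

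Saccharin and water were then compared at each time, which asks whether the unfamiliar taste left these genes at another level. No group that drank familiar saccharin was on the arrays, so unfamiliarity and the identity of the taste cannot be told apart. No member passed the adjusted test at either time, and neither did any probe set in either direction (0% of all tested at 3 h and at 1 h). At 3 h, Dusp6 differed by −0.32 ± 0.12 (SE, saccharin minus water, unadjusted p = 0.0149, adjusted p = 0.999) and Dusp5 by −0.23 ± 0.093 (unadjusted p = 0.0222). Without adjustment 2 of 10 members were thus lower after saccharin, against 2.04% of all tested. Dusp1 differed by −0.29 ± 0.16 with an interval of −0.63 to 0.040. Without C365, Dusp6 differed by −0.18 ± 0.093 and Dusp1 by −0.13 ± 0.14. C365 was the highest water 3 h array for both genes, so leaving it out can only make these differences smaller. Over all 28 alternatives the difference ran from −0.43 to −0.18 for Dusp6 and from −0.44 to −0.13 for Dusp1.

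At 1 h the order was different. Dusp1 (0.017 ± 0.16), Dusp5 (−0.037 ± 0.093) and Dusp6 (0.041 ± 0.12) were close to 0, and the 95% interval for Dusp6 ran from −0.21 to 0.29. Spry4 was the member with the smallest p, at 5.86, 5.85, 5.93 and 5.88 after saccharin, against 5.59, 5.73, 5.63 and 5.63 after water. These arrays did not overlap (exact permutation p = 0.0286), which held, with saccharin higher, for 1 of 10 members and 0.638% of all probe sets tested. The difference of 0.23 ± 0.081 (SE, unadjusted p = 0.0105) did not pass after adjustment (adjusted p = 1.00). Spry1 was also higher without adjustment (0.17 ± 0.074, unadjusted p = 0.0359), so that 2 of 10 members were, against 1.26% of all.

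**Figure D3:**
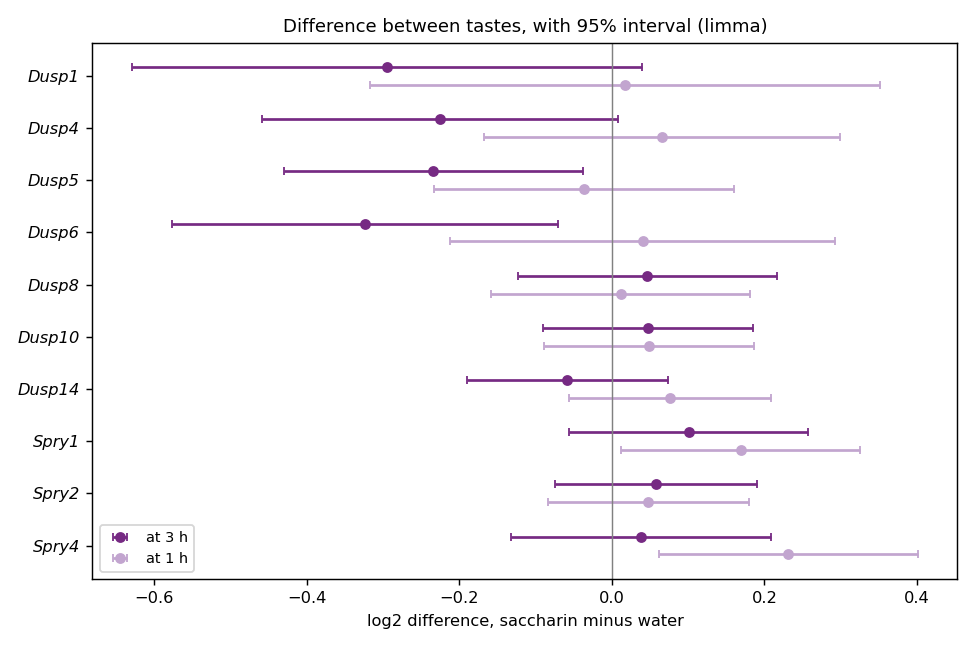
Log2 difference between saccharin and water (horizontal axis, saccharin minus water) for each member, at 3 h (upper, dark) and at 1 h (lower, light), with 95% limma intervals. Dusp5 and Dusp6 at 3 h and Spry1 and Spry4 at 1 h have intervals that leave out 0, and none passed after adjustment.

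The interaction, which is the change with time after saccharin minus that after water, tests directly whether the time course differed between tastes. No member passed, and 0% of all probe sets did in either direction. Dusp6 differed by −0.36 ± 0.17 (SE, unadjusted p = 0.0461, adjusted p = 1.00), the 1 member lower without adjustment, against 1.54% of all tested. Dusp1 differed by −0.31 ± 0.22 (unadjusted p = 0.183) and Spry4 by −0.19 ± 0.11 (unadjusted p = 0.108). Dusp6 thus passed over time after saccharin and not after water, but the difference between these 2 changes did not pass after adjustment. Without C365 the interaction was −0.22 ± 0.13 for Dusp6, −0.14 ± 0.19 for Dusp1 and −0.11 ± 0.095 for Spry4. C365 was the highest water 3 h array for these genes, so leaving it out can only bring these values nearer to 0. In other alternatives the interaction reached −0.47 for Dusp6, −0.46 for Dusp1 and −0.29 for Spry4.

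The rats killed at 3 h after water varied more in most of these genes than the other groups did, but not in Dusp10 or Spry1. The median SD of the 10 members was 0.0902 in saccharin 3 h, 0.0877 in saccharin 1 h, 0.198 in water 3 h and 0.106 in water 1 h, whereas over all probe sets tested it was 0.0873, 0.0785, 0.0788 and 0.0861 in the same groups. Array C365 was the highest of the 8 arrays at 3 h for 6 members (Dusp1, Dusp4, Dusp6, Dusp14, Spry2 and Spry4). It was the lowest of them for Dusp8 (7.70). Its leptomeningeal and fibroblast mean of 6.37 was the lowest of the water 3 h arrays.

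Within the 8 arrays at 3 h, rats with more Dusp1 also had more Dusp6. Pearson's r was 0.933 (exact permutation p = 0.00149, adjusted p = 0.0268 over the 18 relations of Dusp1 to another member at either time) and Spearman's rho was 0.833 (exact p = 0.0154, adjusted p = 0.277). Leaving out C365 and C371, the arrays farthest from the median of Dusp1, gave r = 0.605 (n = 6, exact p = 0.179), so the relation did not pass without these 2 water arrays. Without C365 alone r was 0.823, and over the deviations from the taste means of all 8 arrays it was 0.918. At 1 h, where Dusp6 spanned a narrow range, r was −0.32 (n = 8, exact p = 0.443). None of the other relations passed after adjustment, and the next was Dusp5 at 3 h (r = 0.764, exact p = 0.0277, adjusted p = 0.249).

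**Figure D4:**
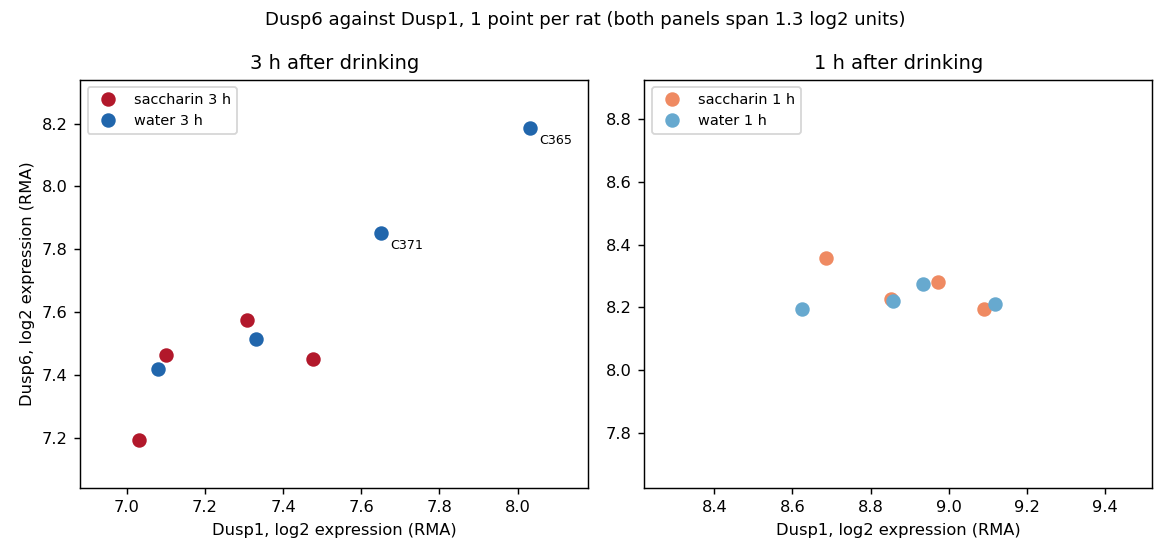
Log2 expression of Dusp6 (vertical axis) against Dusp1 (horizontal axis) in the 8 arrays at 3 h (left) and the 8 at 1 h (right), 1 point per rat, with saccharin and water in different colours. At 3 h the water arrays C365 and C371 are highest for both genes, and at 1 h the points form a narrow band between 8.19 and 8.36 for Dusp6.

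Over all 16 arrays, the genes whose values followed Dusp1 most closely were Junb (r = 0.984), Nr4a1 (0.982), Fos (0.976), Trib1 (0.968) and Arc (0.959), and the same 5 followed Dusp6, led by Nr4a1 (0.974) and Arc (0.972). Junb, Fos and Nr4a1 encode transcription factors of the immediate early class, and Arc a synaptic protein of the same class. After the group means were removed, r ranged from 0.752 (Trib1) to 0.871 (Junb) with Dusp1 and from 0.70 (Junb) to 0.921 (Nr4a1) with Dusp6, over arrays that include C365. Spry4 was followed by other genes, at lower values, namely Ipmk (0.892), Irf2bpl (0.854), Smad1 (0.852), Frmd6 (0.842) and Kif13b (0.831). These are descriptions across arrays that share the 4 groups.

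The wider pathway was read from lists, with time averaged over tastes. Of 14 other dual-specificity phosphatase genes measured, none passed the adjusted test and none had an unadjusted p under 0.05 in either direction, and their median difference was −0.00042, against −0.17 for the 10 members. Members and lists were chosen with earlier results of these data known, so this contrast of medians is a description only. None of 3 tyrosine phosphatases that act on MAP kinases passed. Of 20 other inhibitors of receptor tyrosine kinase, Ras and ERK signalling, 1 fell and none rose, against 0.723% and 0.283% of all probe sets tested. It was Socs2, a suppressor of cytokine signalling (−0.23, adjusted p = 0.0105). Without adjustment 2 of the 20 were lower and 1 higher, against 6.25% and 5.77% of all. Spry3, a Sprouty gene outside the members, was among the 20 and did not pass (−0.16, adjusted p = 0.302). None of 28 growth factors, 17 receptor tyrosine kinases, 19 genes of the Ras to ERK cascade or 5 ERK5 and atypical MAP kinase genes passed in either direction.

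Of 17 JNK and p38 kinase genes, 2 fell and none rose, against 0.723% and 0.283% of all probe sets tested. Both encode kinases that activate p38. Map2k3 averaged 5.27 in saccharin 3 h, 5.80 in saccharin 1 h, 5.50 in water 3 h and 5.71 in water 1 h (averaged difference −0.38, adjusted p = 0.00438). Map2k6 differed by −0.23 (adjusted p = 0.0287). Of 22 genes induced through ERK, 4 fell and none rose, against the same 0.723% and 0.283%, namely Fos (−1.18, adjusted p = 8.56e-06), Junb (−1.14, adjusted p = 5.6e-06), Ier2 (−0.57, adjusted p = 3.07e-05) and Mcl1, which encodes a survival protein (−0.30, adjusted p = 0.0193). The list did not move as 1 block, since 15 of the 22 differences were negative and the median was −0.039. Without adjustment 7 were lower and 4 higher at a limma p under 0.05, against 6.25% and 5.77% of all tested. Of 9 reference genes, none passed the adjusted test, 7 had a negative difference and the median was −0.016. Without adjustment 1 was lower and 0 were higher at a limma p under 0.05. Gapdh (0.017) and Actb (−0.0014) differed little between the times, whereas Hprt1 differed by −0.19 (adjusted p = 0.127).

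**Figure D5:**
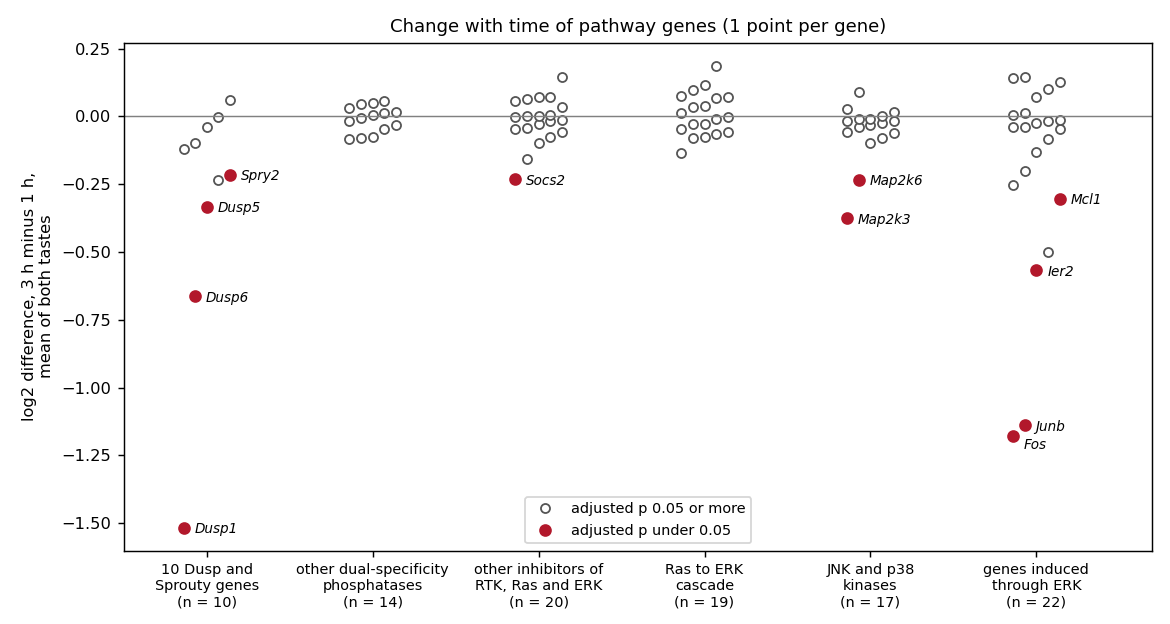
Log2 difference between 3 h and 1 h averaged over tastes (vertical axis, 3 h minus 1 h) for the 10 Dusp and Sprouty genes and for genes of 5 related lists (1 point per gene; filled red, adjusted p under 0.05). Dusp1, Junb and Fos lie below −1.1, and the 14 other dual-specificity phosphatase genes lie close to 0.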

How the data were processed

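Gustatory cortex RNA of 16 rats was hybridised to individual arrays, 4 in each of 4 groups. The authors processed the raw files with affy, quantile normalised probe signals across arrays and summarised them by RMA, so the deposited unit is log2 expression. Values were used as deposited. Tests ran on 15209 of 28826 probe sets, those listed under a single gene in GEO's platform annotation. Those under several genes (306) or not listed there (13311) were left out. Group means were fitted over all 16 arrays with limma 3.58.1 in R 4.3.3, with Benjamini-Hochberg adjustment over the 15209 probe sets and a call at an adjusted p under 0.05. Tests were two-sided. The comparisons were time within each taste, time averaged over tastes, taste at each time, and the interaction. Single values were also compared by exact permutation over arrays. The fit was tested on simulated data. Members, gene lists and tests were chosen with earlier results of these data known. Members were all named, and other genes were named where they passed in a list, were most correlated with Dusp1, Dusp6 or Spry4, or served as references. Spry3, Flt1 and Kdr were named as well. Alternatives covered the probe sets tested, dim filters, normalisation, the variance model, array weights, marker covariates, the study's cut-off and each array left out in turn. Promoter windows are RefSeq's, in GRCr8, and no other coordinates are given. The number of arrays limits the precision.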

Additional observations from a re-analysis of the deposited data

Results flagged for a closer look

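One array stood apart from its group. Dusp10 in saccharin 1 h measured 6.07 on array C377, against 5.85 to 5.89 on the other 3 arrays of that group, a gap that took up most of the range of the group. This was 1 of 40 groups examined (10 genes in 4 groups), and chance alone marks about 1 in 20. Dusp10 passed no comparison with or without this array.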

How the results depend on the processing

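Of the 60 differences of single members, none that passed changed direction under the alternatives run. Without moderation of the variances the members called in time averaged over tastes were 2 rather than 4, and with the leptomeningeal and fibroblast marker mean as a covariate also 2, although the differences of Dusp5 (−0.33) and Spry2 (−0.24) stayed near their size. Both dim filters and the trended robust prior raised the averaged count to 5 by adding Spry4, and all probe sets of the table and the study's cut-off lowered it to 3 by losing Spry2. After saccharin, 3 members were called under both dim filters, median centring, the trended robust prior and array weights (adding Dusp5) and in the fit of 8 arrays (adding Spry4). With the striatal marker mean as a covariate, chosen after seeing the data, 1 member was called in the average, 1 after saccharin and 0 after water. The study's cut-off, on an unadjusted p with a minimum fold change, called 4 members after saccharin, 2 after water, 1 in saccharin minus water at 3 h (Dusp6) and 1 in the interaction (Dusp6). Leaving out 1 array at a time gave 2 to 4 members after saccharin, 1 to 2 after water and 3 to 5 in the average, with 4 after saccharin reached without C365 or C367 and 2 after water without C365. It gave 0 for saccharin minus water at both times and for the interaction. The cause of these shifts was not tested. Each member has 1 probe set, so no other probe set was tried, and the fit on only the 8 arrays of a comparison gives no averaged difference or interaction. No paired analysis was possible because the replicate names are not shared between groups.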
